A study of Homo sapiens with 12 samples.

Results

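The genes described here are 47 factors of cytosolic translation initiation and elongation. They were given as a list of symbols and looked up in a gene-level table of 60605 genes, where all 47 were found. RNA was sequenced from SBC5, an established human line of small cell lung cancer that the labels give as wild type and that grew in RPMI medium with serum. Vehicle libraries came from cells given dimethyl sulfoxide, the solvent of the drug, and no radiation. Olaparib libraries came from cells given 1 µM olaparib, which blocks the PARP1 and PARP2 enzymes of DNA repair, and no radiation. Radiation libraries came from cells given the solvent and 4 Gy of gamma rays. Combination libraries came from cells given 1 µM olaparib 2 hours before 4 Gy. All cells were collected at 3 days, with 3 libraries per group. Everything below concerns 1 cell line, and the sources do not say whether the libraries of a group came from separate cultures, so p-values measure only the spread between libraries.

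Initiation begins when eIF2, carrying GTP and the initiator tRNA, joins the small ribosomal subunit together with eIF1, eIF1A, eIF5 and the large scaffold eIF3. The mRNA is brought in through its cap by eIF4E, the scaffold eIF4G and the helicase eIF4A, helped by eIF4B, eIF4H and the poly(A)-binding proteins. After the start codon is found, eIF5B joins the subunits, eEF1 delivers aminoacyl tRNAs and eEF2 moves the ribosome along. The mRNAs of several of these factors, like those of ribosomal proteins, are known to begin with a terminal oligopyrimidine (TOP) tract, a C at the cap followed by a run of C and T, through which mTOR and LARP1 control their translation and stability.

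The starts of 8 members are printed because the members are also described below by whether they have such a start. Each sequence runs 5′ to 3′ on the gene's strand over 30 bases, 15 before the transcription start and 15 from it, and is taken from the RefSeq promoter table (GRCh38.p14). Capitals mark the unbroken run of C and T that begins at the start base. Of the 10 members with a C followed by 4 pyrimidines, only those that tested lower in the combination, against vehicle or against radiation, are printed.
EEF1A1, chr6:73521018-73521047, minus strand: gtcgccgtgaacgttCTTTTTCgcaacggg
EEF1B2, chr2:206159880-206159909, plus strand: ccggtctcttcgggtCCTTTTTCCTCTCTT
EEF2, chr19:3985449-3985478, minus strand: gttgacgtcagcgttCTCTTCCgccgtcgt
EIF3M, chr11:32583816-32583845, plus strand: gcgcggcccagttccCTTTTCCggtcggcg
EIF4A2, chr3:186783562-186783591, plus strand: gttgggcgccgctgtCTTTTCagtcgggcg
For contrast, 3 members that differed between the combination and vehicle have no such run.
EIF5, chr14:103334222-103334251, plus strand: gcggcggcgttgttcagtcagagcgagaac
EIF4E, chr4:98929119-98929148, minus strand: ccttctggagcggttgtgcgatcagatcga
EIF2B3, chr1:44986581-44986610, minus strand: attgggctgtcagtcagaggcggcgtggag
EEF1B2 showed the tract at the second of its RefSeq starts only. On the gene's strand, 37 members matched an entry, and 10 of these had a start with C and 4 pyrimidines: EEF1A1, EEF1B2, EEF2, EIF2S3, EIF3D, EIF3F, EIF3K, EIF3M, EIF4A2 and EIF4B. Over all entries, 1429 of 35116 windows (4.07%) and 1404 of 27305 genes (5.14%) had one. Members without an entry were PABPC1, EIF2S2, EEF1D, EIF3E, EIF3L, EIF3G, PABPC4, EIF3H, EIF4EBP1 and EIF3A.

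Libraries held 14.3 to 38.8 estimated counts (in 1e+06), of which the 47 members took 0.849% to 1.22%. Olaparib 2, olaparib 3 and radiation 3 carried high background: 404 olfactory receptor genes, normally silent outside the nose, summed to 1897, 2098 and 920.2 counts per 1e+06 (CPM) there, against 354.7 to 501.4 in the other 9 libraries. Those 3 libraries are shown apart, tests used the 9, and statements on which libraries are high, low or overlap concern the 9 unless a library set apart is named. The 9 are 3 vehicle, 1 olaparib, 2 radiation and 3 combination libraries. On a scale set by TMM factors of the 9, olaparib 2 was below every one of the 9 libraries in 44 of the 47 members, olaparib 3 in 42 and radiation 3 in 22. Their median ratios to the rest of their own groups were 0.524, 0.475 and 0.821. Among markers of small cell lung cancer, YAP1 carried counts (84.0 to 123.5 scaled CPM in the 9 libraries). Neuroendocrine markers were mixed: SYP (16.4 to 27.3) carried counts, whereas INSM1 (at most 0.285) and CHGA (at most 0.538) were at or near 0. Summed over 3 markers each, leukocyte genes reached 0.717 to 2.47 and endothelial genes 1.13 to 3.25 in the 9 libraries, and 4.84 to 11.7 and 8.42 to 22.0 in the 3 set apart. Fibroblast markers summed to 13.6 to 18.9 in the 9, most of it COL1A1.

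Every member passed the low count filter in the 9 libraries. With edgeR's quasi-likelihood test and Benjamini-Hochberg adjustment over 30967 genes at a threshold of 0.05, 2 members were higher in the combination than in vehicle, against 1.53% of all genes tested. The GTPase-activating factor EIF5 and the eIF2 beta subunit EIF2S2 were those 2. Another 11 were lower, which is 23.4% of the members, against 3.26% of all genes: EEF1A1, EEF1B2, EEF2, EIF2B3, EIF3C, EIF3E, EIF3L, EIF4E, EIF4E2, EIF4H and EIF5A. Among the 12090 genes with a mean at least that of the least abundant member, 3.5% were higher and 8.11% lower. The members' median log2 change was -0.15 (range -0.64 to 0.64, 38 below 0 and 9 above), against 0.02 over all genes. With library size as the only scaling, the members' median turned to 0.05 and the median of all genes moved by about as much, to 0.22. The members' median relative to that of all genes was -0.16 under either scaling, and under library size only 6 members were higher and 1, EEF1B2, lower. A fit to all 12 libraries called no member in either direction (median -0.15), and with the olfactory receptor sum as a covariate it called EIF2S2 and EIF5 higher and EEF1B2 alone lower. In that fit the members' median was -0.03 and that of all genes -0.03, a difference of -0.0024. On the 9 libraries, limma-voom called 8 lower, without EIF2B3, EIF3L and EIF5A (adjusted p = 0.103, 0.0543 and 0.0688). In bulk RNA a lower level per cell and a different mix of cells cannot be told apart.

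**Figure D1:**
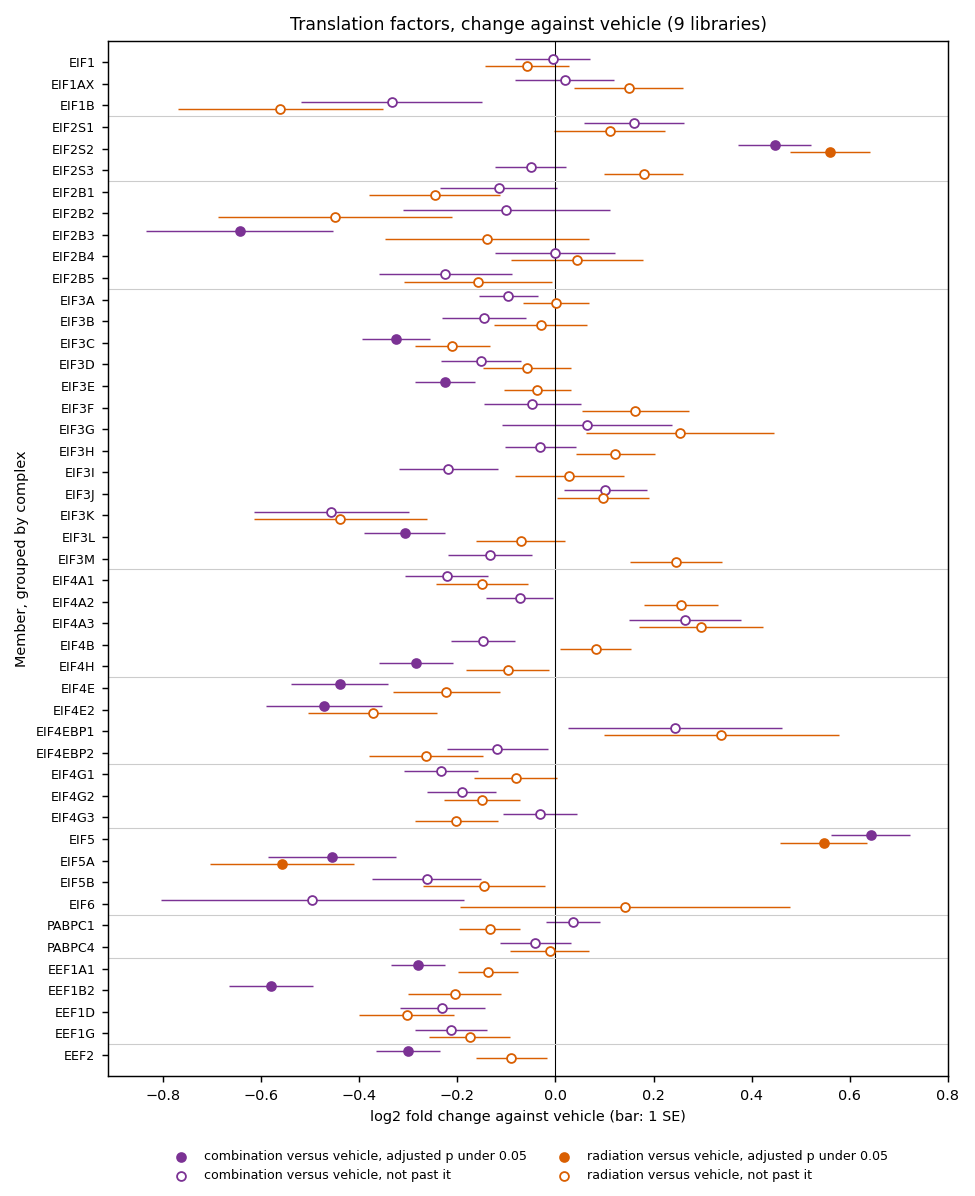
Log2 fold change against vehicle (horizontal axis, bar 1 SE) of each of the 47 members (vertical axis, separated by complex) in the combination (purple) and radiation (orange), fitted in 9 libraries. Filled points passed an adjusted p of 0.05: EIF2S2 and EIF5 to the right in each comparison and EIF5A to the left in each, with 10 further members to the left in the combination. With library size as the only scaling the signs of the filled points did not change, but the median of the members did.

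Radiation alone, with 2 libraries, gave 3 calls against the same vehicle libraries. EIF2S2 and EIF5 were higher (0.42% of all genes were called higher), and EIF5A was lower (0.678% of all genes lower). The members' median was -0.07 against -0.03 over all genes. Because the combination and radiation were compared with the same 3 vehicle libraries, their changes are not independent, and values of each are given side by side below.

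Among the factors that load the initiator tRNA, EIF2S2, the beta subunit of eIF2, stood at 123, 132 and 143 scaled CPM in vehicle 1 to 3 and at 156 in olaparib 1. It reached 203 and 187 in radiation 1 and 2 and 191, 177 and 173 in combination 1 to 3. Every irradiated library of the 9 lay above every vehicle library. The change was log2 0.56, SE 0.082 in radiation (adjusted p = 2.22e-06) and log2 0.45, SE 0.074 in the combination (adjusted p = 9.66e-06). In radiation 3, shown apart, it was 161, also above all vehicle libraries. The alpha subunit EIF2S1, whose phosphorylation shuts down initiation under stress, averaged 38.9 scaled CPM (SD 3.85, n = 3) in vehicle and 43.5 scaled CPM (SD 3.11, n = 3) in the combination and was not called (log2 0.16, SE 0.10, adjusted p = 0.531). The gamma subunit EIF2S3, which binds GTP and the tRNA, was also not called in either comparison.

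EIF5, which triggers GTP hydrolysis by eIF2 at the start codon, had the largest rise of any member in the combination. Its levels were 66.6, 69.1 and 67.1 scaled CPM in vehicle and 65.9 in olaparib 1. They were 105 and 92.6 after radiation and 109.6, 103 and 104 after the combination. The unirradiated libraries of the 9 lay within a narrow band, and none overlapped those with radiation. Olaparib 2 and 3, shown apart, were below that band (39.8 and 36.0), and radiation 3 was at 82.3, above all unirradiated libraries. The rise over vehicle was 46.1% in radiation (log2 0.55, SE 0.089, adjusted p = 3.1e-05) and 56.1% in the combination (log2 0.64, SE 0.081, adjusted p = 7.4e-09). The 2 calls of EIF2S2 and the 2 of EIF5 held without any single library and were lost only in the fit to all 12 libraries, where the log2 changes were 0.45 to 0.64 (adjusted p = 0.934 to 1).

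eIF2B, a complex of 5 listed subunits, recharges eIF2 with GTP and is the target of the phosphorylated alpha subunit. All 5 had values below 0 in the combination, and 1 fell. EIF2B3, its gamma subunit, had 13.0, 12.8 and 9.57 scaled CPM in vehicle, 11.9 in olaparib 1, 10.8 and 10.6 after radiation and 7.35, 7.35 and 7.93 in the combination. The 3 combination libraries were the lowest of the 9 and close together. The fall against vehicle (log2 -0.64, SE 0.19, adjusted p = 0.0293) was lost without vehicle 1 or 2 or without any of the combination libraries (adjusted p = 0.0549 to 0.161). The other 4 ranged from log2 -0.22 (EIF2B5, the catalytic subunit) to -0.0007 (EIF2B4).

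EIF1, EIF1AX and EIF1B, which hold the scanning complex open until a start codon is met, gave no call in any comparison with edgeR or limma-voom. EIF1, with the most counts of the 3, averaged 126 scaled CPM (SD 8.26, n = 3) in vehicle, 121 scaled CPM (SD 3.88, n = 2) in radiation and 125 scaled CPM (SD 8.26, n = 3) in the combination, and stood at 98.8 in olaparib 1. The log2 change in the combination was -0.01 (SE 0.077, adjusted p = 0.993).

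Of the 13 subunits of eIF3, which bridges the small ribosomal subunit and the mRNA, 3 fell in the combination and none rose, with a median of log2 -0.15. Radiation alone gave no call among the 13 (median 0.0011, and 3 with an unadjusted p under 0.05). EIF3C, a core subunit that contacts eIF1 and eIF5, had 289.5, 313 and 344 scaled CPM in vehicle, 267 and 279 after radiation and 248, 251 and 258 in the combination. The vehicle libraries were all above the irradiated ones. Olaparib 1, unirradiated and at 240.3, was the lowest of the 9 (log2 -0.39 against vehicle). The fall in the combination was log2 -0.32, SE 0.069, adjusted p = 0.000782. EIF3C has a near-identical copy, EIF3CL, at 11.2 to 22.6 scaled CPM, between which reads could be split, so its level is uncertain, and EIF3CL itself gave log2 0.20, SE 0.32, adjusted p = 0.905.

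EIF3E and EIF3L, subunits with a PCI domain that help form the core of eIF3, also fell. EIF3E went from 604, 589 and 623 scaled CPM in vehicle and 593 and 587 in radiation to 512, 517 and 525 in the combination (log2 -0.22, SE 0.061, adjusted p = 0.0145), with the 3 combination libraries below all others of the 9. EIF3L went from 108, 115 and 134 in vehicle to 101, 99.1 and 88.3 (log2 -0.31, SE 0.082, adjusted p = 0.0123), and radiation 1 and 2, at 121 and 105, overlapped vehicle. The call of EIF3E was lost without vehicle 3 (adjusted p = 0.0778) or combination 1 (0.072), and that of EIF3L without vehicle 3 (0.226) or combination 3 (0.129). EIF3K, a small subunit with a PCI domain, had the lowest value of the 13 without passing the test (log2 -0.46, SE 0.16, adjusted p = 0.0849). Its level was 17.4, 15.3 and 18.3 in vehicle, 18.5 in olaparib 1, 12.6 and 12.5 after radiation and 13.2, 11.7 and 12.3 in the combination, with vehicle above every irradiated library. The remaining subunits ranged from -0.22 (EIF3I) to 0.10 (EIF3J, the loosely bound subunit), and EIF3A, the largest subunit, was at -0.10.

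At the cap, EIF4E and its relative EIF4E2 fell in the combination, and the eIF4E inhibitors did not pass the test. EIF4E, the cap-binding protein, had 51.0, 53.8 and 52.8 scaled CPM in vehicle, 54.0 in olaparib 1, 43.9 and 46.1 after radiation and 43.0, 34.5 and 38.6 in the combination. Among the 9, every irradiated library was below every library without radiation, and the combination libraries were below the radiation ones. Olaparib 2 and 3, shown apart and unirradiated, were at 34.0 and 35.0, below combination 1 and 3, and radiation 3 was at 46.0. EIF4E fell by 26.3% against vehicle in the combination (log2 -0.44, SE 0.099, adjusted p = 0.00163), and in radiation the value was log2 -0.22, SE 0.11 (adjusted p = 0.504). EIF4E2, a cap-binding relative that represses translation, had 31.8, 32.0 and 31.1 in vehicle and 22.9, 21.5 and 23.9 in the combination (log2 -0.47, SE 0.12, adjusted p = 0.00653). Radiation 1 and 2 stood at 26.04 and 22.8, and the vehicle libraries did not overlap them. EIF4EBP1, which blocks eIF4E unless mTOR phosphorylates it, averaged 7.30 scaled CPM (SD 1.85, n = 3) in vehicle and 8.66 scaled CPM (SD 2.59, n = 3) in the combination, a difference within the spread of the libraries (log2 0.24, SE 0.22, adjusted p = 0.741). EIF4EBP2, the other listed inhibitor, was at -0.12.

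Among the helicases and their helpers, EIF4H, which stimulates eIF4A, was the member that fell in the combination. It had 189, 214 and 219.9 scaled CPM in vehicle and 153, 189 and 169 in the combination, so that combination 2 overlapped vehicle 1 (log2 -0.28, SE 0.075, adjusted p = 0.0116). The call was lost without vehicle 2 or 3 or combination 1 or 3 (adjusted p = 0.0573 to 0.176). Its pseudogene copies held 17.0% of the counts of EIF4H and the copies together, more than for any other member, and the call held when they were added. EIF4A1 and EIF4A2, the helicases of the cap complex, were at -0.22 and -0.07 in the combination, and EIF4A3, a helicase of the exon junction complex, at 0.26, none of them called. EIF4B was at -0.15.

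The eIF4G scaffolds were all below 0 in the combination without a call. EIF4G1 came nearest, with 147, 147 and 159 scaled CPM in vehicle and 126, 129 and 130.2 in the combination, which do not overlap (log2 -0.23, SE 0.076, adjusted p = 0.0561). EIF4G2, which lacks the eIF4E-binding site and had the most counts of the 3, averaged 226 scaled CPM (SD 6.36, n = 3) and 198 scaled CPM (SD 10.5, n = 3) (log2 -0.19, SE 0.07, adjusted p = 0.115). DESeq2 called each of these 2 lower, as well as EIF3K and EEF1D. With TMM and edgeR, neither poly(A)-binding protein was called against vehicle in the combination or in radiation. PABPC1 averaged 1608 scaled CPM (SD 28.6, n = 3) in vehicle and 1649 scaled CPM (SD 66.7, n = 3) in the combination, and PABPC4 was at log2 -0.04. In radiation PABPC1 was at log2 -0.13, SE 0.062 (adjusted p = 0.451), and limma-voom called it lower there. With library size only, PABPC1 was called higher in the combination.

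EIF5A, which carries the amino acid hypusine and eases stalled peptide bonds, fell in each irradiated group. It had 25.6, 25.96 and 30.1 scaled CPM in vehicle, 27.8 in olaparib 1, 19.4 and 17.6 after radiation and 20.6, 21.6 and 17.4 in the combination. Irradiated libraries were all below those of the 9 without radiation, radiation 3 included (17.9), although olaparib 2 and 3, shown apart, were lower still (12.5 and 8.996). The fall was log2 -0.56, SE 0.15, adjusted p = 0.0329 in radiation and log2 -0.46, SE 0.13, adjusted p = 0.023 in the combination. The radiation call was lost with limma-voom (adjusted p = 0.0766), and without any one of the vehicle or radiation libraries in turn (adjusted p = 0.0523 to 0.273), and the combination call without vehicle 3 or combination 3 (0.182 and 0.17). EIF5B, the subunit-joining GTPase, was at log2 -0.26, SE 0.11 in the combination with combination libraries spread from 369.6 to 482.3 scaled CPM, and EIF6, which keeps free large subunits apart, was the least counted member, at 36 to 207 counts per library in the 9, with log2 -0.50, SE 0.31. Neither passed the test, although EIF5B was called lower in the combination without a count filter, or without vehicle 3 or combination 1. In olaparib 1 EIF5B stood at 300.6 scaled CPM, against 533, 516 and 427 in vehicle 1 to 3 (log2 -0.71).

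All 4 listed subunits of eEF1 had values below 0 in the combination, and 2 fell. EEF1B2, a nucleotide exchange subunit that recharges eEF1A, fell by 33.1%. It had 79.4, 86.7 and 91.3 scaled CPM in vehicle, 94.8 in olaparib 1, 78.9 and 70.0 after radiation and 60.9, 59.0 and 52.4 in the combination. Among the 9 the groups did not overlap, with the combination lowest and radiation between it and vehicle (log2 -0.58, SE 0.086, adjusted p = 7.19e-07). This call held without any single library and with every other scaling, filter and test run on the 9 libraries, and was lost only in the fit to all 12. EEF1A1, which carries aminoacyl tRNA to the ribosome and gave the most counts of any member, had 3464, 3728 and 4089 in vehicle, 4262 in olaparib 1, 3595 and 3238 after radiation and 3212, 3099 and 2976 in the combination (log2 -0.28, SE 0.055, adjusted p = 0.000286). Its combination libraries were below all others of the 9, and radiation overlapped vehicle (log2 -0.14, SE 0.061, adjusted p = 0.421). It has 49 pseudogene copies in the table, which held 0.459% of the joint counts. EEF1D and EEF1G, the other exchange and scaffold subunits, were at -0.23 and -0.21, with vehicle libraries all above combination libraries but adjusted p of 0.128 and 0.0832.

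EEF2, the translocase that EEF2K inhibits, fell in the combination. It had 649.6, 739 and 813 scaled CPM in vehicle, 758 in olaparib 1, 718 and 662 after radiation and 603, 612 and 573 in the combination, where all 3 were below every other library of the 9 (log2 -0.30, SE 0.065, adjusted p = 0.00123). The call was lost without vehicle 3 (adjusted p = 0.0541). In radiation the value was log2 -0.09, SE 0.073, adjusted p = 0.776.

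**Figure D2:**
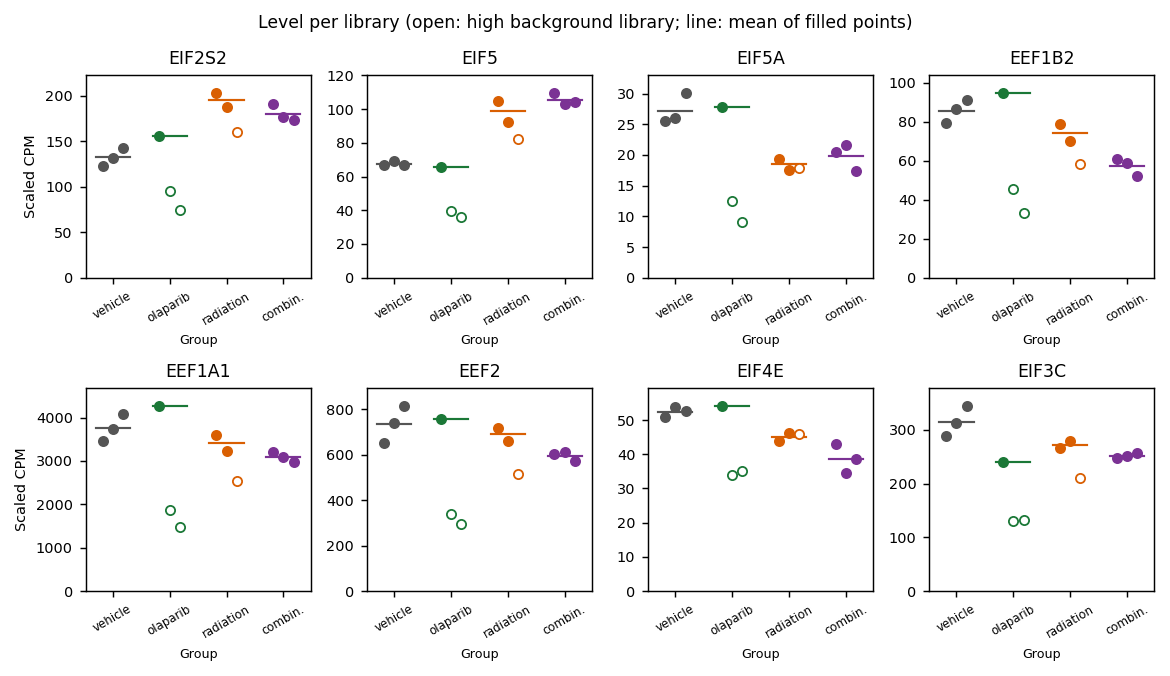
Scaled CPM (vertical axes, each from 0) of 8 members in each library, by group (horizontal axes, 3 libraries a group). Filled points are the 9 libraries tested and open points the 3 with high background; lines are means of the filled points. EIF2S2 and EIF5 are higher, and EIF5A and EIF4E lower, in every filled irradiated library than in every vehicle library. Among filled points EEF1B2 is lowest in the combination, with the open points of olaparib 2 and 3 lower still (45.65 and 33.3).

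The addition of olaparib to radiation was followed by comparing the combination with radiation alone, that is 3 libraries with 2. No member was higher (44 genes, 0.142% of all tested, were), although 1 had an unadjusted p under 0.05; DESeq2 and limma-voom each called 1, PABPC1. Lower were 3 members, against 0.426% of all genes: EEF1B2, EIF3M and EIF4A2. The median of the members was -0.10, against 0.03 over all genes, and 35 members were below 0. No member was lower in a fit to all 12 libraries, with or without the covariate, or with library size as the only scaling.

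EIF4A2, a helicase of the cap complex, had 375 and 333 scaled CPM in radiation and 270.2, 290.4 and 286 in the combination (log2 -0.33, SE 0.075, adjusted p = 0.0144). The vehicle libraries, at 284, 289 and 316, overlapped the combination, and olaparib 1, at 359, lay between the radiation libraries. Radiation was above vehicle without overlap (log2 0.26, SE 0.075, adjusted p = 0.0783 with edgeR). DESeq2, limma-voom and library size as the only scaling called EIF4A2 higher there. EIF3M, a further eIF3 subunit with a PCI domain, had 105 and 86.1 after radiation and 68.8, 79.2 and 72.3 in the combination (log2 -0.38, SE 0.094, adjusted p = 0.0321), with vehicle at 74.3, 80.5 and 86.7. In radiation against vehicle, EIF3M was at log2 0.25, SE 0.094 (adjusted p = 0.276), with overlap. For EEF1B2, lower in radiation than in vehicle, the values above gave log2 -0.37, SE 0.095, adjusted p = 0.0386 in the combination against radiation. Radiation 3, shown apart, was at 242 for EIF4A2, below every combination library, at 76.5 for EIF3M and at 58.2 for EEF1B2. The calls of these 3 were lost without radiation 1. Radiation 2, the lone radiation library then left, was above every combination library for each of the 3. With that library assumed to vary like the others, the log2 changes were -0.24 for EIF4A2, -0.23 for EIF3M and -0.28 for EEF1B2. EIF4A2 also lost its call without combination 1, EIF3M without vehicle 2, olaparib 1 or combination 1 or 3, and EEF1B2 without vehicle 2, olaparib 1 or combination 2 or 3, or with its pseudogene copies added. With limma-voom the calls of EIF3M and EEF1B2 were also lost (adjusted p = 0.14 and 0.157).

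All 3 called members begin with C and 4 pyrimidines in RefSeq, as printed above. Members with such a start thus had 3 lower of 10, with a median log2 change of -0.22 and all 10 below 0 (-0.38 to -0.02). Those with another start had 0 lower of 27, with a median of -0.05 (-0.64 to 0.35). Over all genes tested, 21 of 989 with the start (2.12%) and 73 of 14219 without it (0.513%) were lower in the combination than in radiation. Their medians were -0.05 and 0.01. With library size only the members' medians were -0.13 (9 of 10 below 0) and 0.04, and with all 12 libraries -0.09 (8 of 10) and 0.04, with 0 lower in either set. In the combination against vehicle, 3 of 10 members with the start and 6 of 27 without it were lower, with medians of -0.15 and -0.21, which library size as the only scaling moved to 0.05 and -0.01. Over all genes that comparison gave 10.4% lower with the start and 4.81% without. In radiation against vehicle, 0 of 10 members with the start and 1 of 27 without it were lower, with medians of 0.01 and -0.15. Over all genes, 1.62% with the start and 0.851% without it were lower there. Of the 10 members commonly listed as TOP mRNAs, which include EEF1G, with another start in the table, 4 fell against vehicle (EEF1A1, EEF1B2, EEF2 and EIF3E) and 1, EEF1B2, against radiation. A start in the table describes the annotated transcript and not the one used in these cells, and no difference between the kinds of start was tested.

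**Figure D3:**
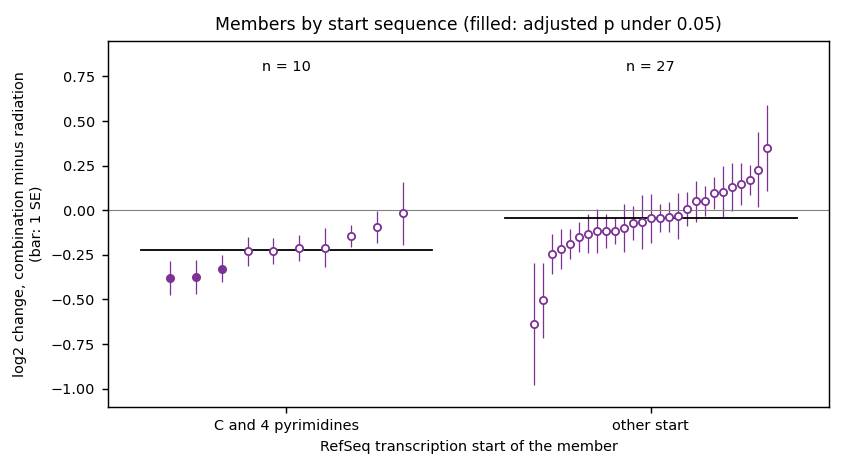
Log2 change of the combination minus radiation (vertical axis, bar 1 SE) for the 37 members with a RefSeq start, by whether the start is a C followed by 4 pyrimidines (horizontal axis); lines are medians, -0.22 over 10 members and -0.05 over 27. The 3 filled points, EIF3M, EEF1B2 and EIF4A2, passed an adjusted p of 0.05, and all 3 are in the group with the tract; with library size as the only scaling the 3 values stay below 0 but lose the call.

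Olaparib alone was represented by a single library in the fit, assumed to vary like the other groups. No member was higher (3 genes, 0.00969% of all tested, were), although 5 had an unadjusted p under 0.05 in that direction, and DESeq2 and limma-voom called none. PABPC1 was lower (0.0581% of all genes were). The members' median was 0.03, against -0.02 over all genes. Their log2 changes ranged from -0.71, for EIF5B, to 0.68, for EIF4EBP1. PABPC1, which binds the poly(A) tail and joins it to eIF4G, had 1633, 1614 and 1577 scaled CPM in vehicle and 1180 in olaparib 1 (log2 -0.45, SE 0.08, adjusted p = 0.00177). The radiation libraries, at 1460 and 1470, lay between these, and the combination, at 1722, 1591 and 1635, overlapped vehicle. Olaparib 2 and 3 were at 634 and 673, but nearly all members were low in those libraries, and in the fit to all 12 libraries PABPC1 was not called (log2 -0.97, adjusted p = 0.131), whereas it was with the olfactory receptor sum as a covariate (log2 -0.52, adjusted p = 0.0327).

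The interaction of the design asks whether olaparib acted differently with radiation and without it. PABPC1 gave an interaction of log2 0.62, SE 0.10, adjusted p = 0.000231, against 0.0969% of all genes called in that direction, and EIF4A2 gave log2 -0.60, SE 0.12, adjusted p = 0.00547, against 0.103%. Olaparib 1 was below vehicle for PABPC1 and above it for EIF4A2 (log2 0.27, SE 0.094, adjusted p = 1), whereas the combination was above radiation for PABPC1 (log2 0.17, SE 0.062, adjusted p = 0.243) and below it for EIF4A2. Among the 9, olaparib without radiation is olaparib 1 alone. With all 12 libraries the interaction of EIF4A2 turned to 0.28 (adjusted p = 0.698) and that of PABPC1 was 1.22 (0.142). With the covariate added they were -0.49 (0.294) and 0.72 (0.0547), so that each kept its direction and lost its call. The call of EIF4A2 was also lost without radiation 1 (log2 -0.51, adjusted p = 0.108). Members called with a negative interaction numbered 5 without radiation 2 or with DESeq2, 4 with limma-voom and 3 without vehicle 3, EIF4A2 among them each time, and 2 members, EIF5B and PABPC1, were called with a positive one without vehicle 3, without a count filter or with the replicate block.

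**Figure D4:**
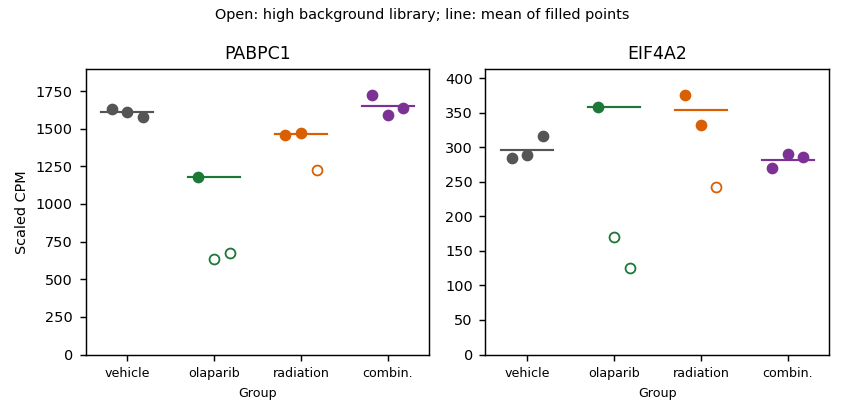
Scaled CPM (vertical axes, from 0) of PABPC1 and EIF4A2 in each library, by group (horizontal axes). Filled points are the 9 libraries tested, open points the 3 with high background, lines the means of filled points; olaparib 1 is the lowest filled point for PABPC1 and below radiation 1 alone for EIF4A2.

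The wider translation machinery was followed in 69 further genes, of which 68 were tested. In the combination against vehicle 4 were higher (5.88%) and 13 lower (19.1%), with a median log2 change of -0.10. Over all genes tested 1.53% were higher and 3.26% lower, with a median of 0.02. Among the 12090 more abundant genes described above, the shares were 3.5% and 8.11%. Among 6 kinases and phosphatase subunits that set the phosphorylation of eIF2, 2 rose, each a subunit that directs the phosphatase to eIF2 alpha. PPP1R15A, the stress-induced one, went from 33.8, 33.3 and 43.1 scaled CPM in vehicle to 41.1, 47.2 and 49.9 (log2 0.33, SE 0.10, adjusted p = 0.0493), with overlap, and had 53.1 and 52.3 in radiation 1 and 2, above all vehicle libraries, with radiation 3, shown apart, below them at 31.2 (log2 0.52, SE 0.11, adjusted p = 0.00408). PPP1R15B, the constitutive one, went from 69.1, 78.6 and 82.4 to 98.6, 92.6 and 105 without overlap (log2 0.36, SE 0.082, adjusted p = 0.00177). None of the 4 kinases was called. PPP1R15A lost its combination call without vehicle 1 or 2, olaparib 1, radiation 1 or 2, or combination 2 or 3, and PPP1R15B without combination 3.

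Of 19 other initiation factors and paralogs tested, PAIP2B, an inhibitor of poly(A)-binding protein (log2 0.64, SE 0.14), and the scanning helicase DHX29 (log2 0.32, SE 0.088) rose. EIF4E3, a further relative of eIF4E (log2 -0.49, SE 0.085), EIF2D, which can deliver initiator tRNA without eIF2 (log2 -0.51, SE 0.12), and the helicase DDX3X (log2 -0.28, SE 0.074) fell. EIF4E3 had 87.2, 81.4 and 90.9 scaled CPM in vehicle and 61.5, 63.6 and 59.8 in the combination, and, like EIF4E and EIF4E2, did not overlap. The calls lost without 1 library here were those of DHX29 (vehicle 1 or 3, or combination 1 or 3), EIF2D (vehicle 3) and DDX3X (combination 1). None of 15 other elongation factors and enzymes that modify them was called; 2 had an unadjusted p under 0.05, and PABPC3 was the gene not tested. Of 6 termination and recycling factors, HBS1L, which frees stalled ribosomes, fell (log2 -0.30, SE 0.082).

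Of 13 genes that carry mTOR and MNK signals to the cap, 3 fell and none rose: RPS6, the ribosomal protein phosphorylated by S6 kinase (log2 -0.36, SE 0.071), PDCD4, an inhibitor of eIF4A (log2 -0.32, SE 0.096), and LARP1 (log2 -0.22, SE 0.066). PDCD4 and LARP1 also fell in radiation (-0.50 and -0.29). Of 9 mRNAs with a TOP tract that encode other proteins, 6 fell: HNRNPA1 (log2 -0.52, SE 0.062), BTF3 (log2 -0.42, SE 0.078), RACK1 (log2 -0.34, SE 0.081), NACA (log2 -0.26, SE 0.082), NAP1L1 (log2 -0.21, SE 0.059) and NPM1 (log2 -0.21, SE 0.059). HNRNPA1 had 599.9, 614 and 620.4 scaled CPM in vehicle, 570.5 and 552 after radiation and 416, 429.8 and 430.1 in the combination, where it was below every vehicle and radiation library of the 9. Radiation 3, shown apart, was at 404, below all 3 combination libraries. HNRNPA1 (-0.40) and NPM1 (-0.32) were also lower than in radiation alone. Leaving out 1 library ended the call of LARP1 for any vehicle or combination library, that of NACA for vehicle 2 or 3, olaparib 1 or any combination library, that of PDCD4 for vehicle 2 or 3 or any combination library, and that of NPM1 for vehicle 2 or 3 or combination 1 or 3. It ended that of RACK1 for vehicle 3 or combination 1 or 3, and those of HBS1L and NAP1L1 for vehicle 2 or combination 1 or 2. The calls of RPS6, HNRNPA1 and BTF3 held without any single library. With library size as the only scaling, EIF4E3 and HNRNPA1 alone of the further genes called lower kept the call. RPS6 (log2 -0.16, adjusted p = 0.156) and BTF3 (log2 -0.22, adjusted p = 0.0591) lost it. In all 12 libraries with the olfactory receptor sum as a covariate, RPS6 and BTF3 were again not called (adjusted p = 0.223 and 0.0631). Without that covariate, the fit to all 12 libraries called no gene lower.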

How the data were processed

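Stranded total RNA libraries of SBC5 cells were sequenced. Per the submitters' processing notes, kallisto 0.46.1 and DESeq2 were used. The table the authors deposited holds expected counts, that is estimated counts summed by gene, of which 68.8% were whole to within 1e-06. Neither build nor annotation release is named in the sources used here. The table's 60649 Ensembl IDs became 60605 genes when 44 pseudoautosomal Y entries were added to their X counterparts, and a name table matched 60463. Every one of its 12 columns matched a sample by name. Estimates were rounded to whole numbers.

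Libraries whose olfactory receptor sum was over 1.5 times the median were set apart, leaving 9 (the shallowest of the 9 held 19.4 counts, in 1e+06). In R 4.3.3 with edgeR 4.0.16, genes passing the default low count filter over the 4 groups (30967) were scaled by TMM and tested with robust quasi-likelihood F-tests, 1 mean per group, with Benjamini-Hochberg adjustment over all of them and a threshold of 0.05. Log2 changes are edgeR's, SE is the standard error found as the change divided by the square root of its F, and SD is the standard deviation between libraries. Scaled CPM of the 3 libraries set apart use TMM factors against the same reference library and are in no mean. Scaled CPM are not corrected for transcript length, so levels are compared within a gene only. The script was tested on simulated data.

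Members named with values are those called in any comparison, the most counted member of a complex with no call, and EIF2S1, EIF4E, EIF4EBP1, EEF1A1 and EEF2. Other values of members, EIF3CL and the other translation genes called in radiation were chosen after they were seen. The members, lists and the choice of 9 libraries were made with earlier results of these data known, and the interaction was added. Alternatives were other tests (DESeq2 1.42.0, limma-voom with limma 3.58.1), other scalings (DESeq2's size factors, library size), other filters (none, or 1 CPM in at least 3 libraries), only the groups compared, a replicate block, leaving out each library, all 12 libraries without and with the olfactory receptor sum as a covariate, and pseudogene copies added. Replicate numbers did not pair the libraries, since correlations of same-numbered libraries' deviations ran from -0.046 to 0.006. Values of 2 genes outside the members are not reported here.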

Additional observations from a re-analysis of the deposited data

Results flagged for a closer look

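For 2 members the effect of olaparib differed between irradiated and unirradiated cells by a test of the difference itself, the interaction in edgeR's quasi-likelihood fit to 9 libraries; across the alternatives 0 to 2 members were called with a positive and 0 to 5 with a negative one. For PABPC1 the difference was 0.6168 on the log2 scale (SE 0.10, adjusted p = 0.000231): olaparib 1 was below all 3 vehicle libraries, and combination 1 to 3 were above radiation 1 and 2. For EIF4A2 it was -0.6024 (SE 0.12, adjusted p = 0.00547): olaparib 1 was above all 3 vehicle libraries, and combination 1 to 3 were below radiation 1 and 2, but above radiation 3, which was set apart (242 scaled CPM). The unirradiated side of each rests on 1 library, and in the fit to all 12, with or without the olfactory receptor sum as a covariate, neither was called. In olaparib 2 and 3 PABPC1 stood at 634 and 673 scaled CPM and EIF4A2 at 170.3 and 126, below all 9 libraries for each gene, as for nearly all members there, and the part of their background in this was not tested.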

How the results depend on the processing

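With library size only, calls in combination versus vehicle were 6 higher and 1 lower (2 and 11 with TMM), 5 and 0 for radiation against vehicle (2 and 1), and 1 and 0 for combination against radiation (0 and 3). The members' medians became 0.0542, 0.0401 and -0.0084, and 0.1049 in olaparib versus vehicle. DESeq2 called 2 lower in radiation versus vehicle, 1 higher and 5 lower in combination versus radiation, and 4 lower in olaparib versus vehicle; limma-voom called 8 lower in combination versus vehicle, 1 higher in combination versus radiation and 3 lower in olaparib versus vehicle. Without a count filter, 2 were lower in olaparib versus vehicle. With the compared groups alone, 0 were lower in each comparison with radiation alone and 2 in olaparib versus vehicle. The fit to all 12 libraries called 0 members in every comparison, with medians of -0.1788 in radiation versus vehicle, -0.005 in combination versus radiation and -0.5609 in olaparib versus vehicle, and the interaction of EIF4A2 reversed to 0.2841. With the olfactory receptor sum as a covariate, 1 member was lower in combination versus vehicle, and 0 in either comparison that involves radiation alone, with medians of -0.0321 for the combination and 0.0047 for radiation, each against vehicle.

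With each library left out in turn, members lower in combination versus vehicle numbered 7 (without vehicle 3) to 13 (without radiation 2). In radiation versus vehicle 2 to 4 were higher (4 without vehicle 3) and 0 to 1 lower (0 when any vehicle or radiation library was left out). In combination versus radiation 0 (without radiation 1) to 4 were lower, with 1 without vehicle 2, olaparib 1, combination 1 or combination 3. The median there ran from -0.188 (without radiation 2) to -0.0537, and 1 to 2 were lower in olaparib versus vehicle (2 without vehicle 3 or combination 1). The medians ran from -0.2046 to -0.0976 in combination versus vehicle, -0.1298 to -0.0104 in radiation versus vehicle and 0.0131 to 0.0901 in olaparib versus vehicle. Apart from the EIF4A2 interaction, no call of a member changed direction in any alternative, nor did any of the further genes in combination versus vehicle. Calls of the further genes in other comparisons were not followed over the alternatives. The cause of each lost call was not tested.

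Since replicate numbers did not pair the libraries, the fit with the number as a block is given here only: 2 higher and 12 lower in combination versus vehicle, 2 and 0 for radiation against vehicle, 0 and 2 for the combination against radiation alone, and 0 and 2 for olaparib against vehicle. The precision of olaparib alone is limited by its single library.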
